A study of Ovis aries with 49 samples.

Results

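The respiratory chain and ATP synthase genes described here are those whose symbol begins with NDUF, SDHA, SDHB, SDHC, SDHD, UQCR, COX4, COX5, COX6, COX7, COX8 or ATP5. Of 10273 probe sets in the table, 59 carried such a symbol, each for a different gene. By prefix, 27 belonged to complex I, 2 to complex II, 5 to complex III, 9 to complex IV and 16 to complex V. Of the 59, 54 were counted as subunits by their symbol, COX7A2L among them. The other 5 were the complex I assembly factors NDUFAF3, NDUFAF4, NDUFAF5 and NDUFAF7 and the ATP synthase inhibitor ATP5IF1. RNA of lambs from epicardial, omental, perirenal, sternal and subcutaneous adipose tissue, at 7 and at 28 days of age, was hybridised to human expression arrays, 49 in all. Each depot and age had 5 arrays, except subcutaneous fat at 7 days with 4. No treatment separates the groups in the labels, and each held whole pieces of tissue. The study's protocol split twin pairs of like sex, with 1 lamb sampled at each age. Mothers in the study had a standard diet or the same diet with canola oil. The mothers' diet is not in the labels, and the meaning of the C in all titles is not stated there. Nor do they say that a replicate number is an animal. The study's methods describe RNA of each depot from 5 animals of each maternal diet group. They also describe the network data of each age as 5 depots of 5 animals. Depots of an age can thus share animals, whereas the main tests treat arrays as independent. The p-values cover only the spread among these samples. The numbers are written here as letters, from A to G for the younger and from H to O for the older lambs. Ages were read from the age field, and a description common to all samples gives a different range of ages.

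Complexes I to IV pass electrons from NADH and succinate to oxygen, and complexes I, III and IV pump protons across the inner mitochondrial membrane. Complex V, the ATP synthase, uses the proton gradient to make ATP. Brown adipocytes of newborn lambs are rich in mitochondria, and their uncoupling protein UCP1 lets protons return without making ATP, which releases heat. Brown adipocytes are also known for having little ATP synthase relative to their respiratory chain, while heart and skeletal muscle have much of both.

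Levels are log2 values made with GCRMA, which corrects the background and normalizes the arrays, and they run from 2.49 to 14.04 over the table, with 82.7% of all values below 4. Of the members, 30 averaged at least 4 over the 49 arrays, 29 lay below 4 and 16 below 3, so that nearly as many members lay near the lowest signal as above it. The 30 were 10 of complex I, 2 of complex II, 3 of complex III, 4 of complex IV and 11 of complex V. Low expression and poor matching of human probes to sheep transcripts cannot be told apart, and levels of different genes were not compared. COX7C, COX8A and COX7A2L, placed in complex IV by prefix, were near the lowest signal in most arrays. So was COX6A2, the form of subunit VIa found in heart and skeletal muscle. The highest COX6A2 values were 3.10 in sternal array J and 2.84 in subcutaneous array J, both at 28 days. Values repeated exactly between arrays made up 35.7% of all member values and 20.3% of those of the 30 brighter members. SDHC, for example, held the same value in 10 arrays, so that groups with such repeats have very small SDs. The labelled tissue could be checked only in part. Of 11 adipocyte markers 7 were on the table, and CD36, a fatty acid transporter, was the only one with a group mean of at least 4, in all 10 groups, whereas FABP4 and CIDEC, which define adipocytes, had group means of at most 2.80 and 2.68. In such bulk samples, fewer cells of a type and less RNA per cell cannot be told apart.

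Muscle markers differed between arrays of the same group. Of 16 cardiac muscle markers 10 were measured, and their mean level per array was 6.08 to 8.06 in epicardial fat at 7 days and 2.98 to 7.71 at 28 days. Of 18 skeletal muscle markers 13 were measured, with array means of 2.71 to 7.26 in subcutaneous fat at 7 days and 2.71 to 6.92 in sternal fat at 28 days. The muscle creatine kinase gene CKM exceeded 4 in sternal array D and subcutaneous arrays A, E and G at 7 days and in sternal arrays J, N and O and subcutaneous arrays J and M at 28 days. In epicardial fat it exceeded 4 in 5 of 5 arrays at 7 days and in 4 of 5 at 28 days, array I having 2.76. Omental and perirenal arrays had no more than 3.13. Counts are therefore also given without those sternal and subcutaneous arrays, a choice made after the data had been seen, as are the members among the largest called differences that lost their call without them. Only 1 subcutaneous array of 7 days is then left, with its spread taken from the remaining groups, and fewer calls can be made there for that reason alone.

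From 7 to 28 days, respiratory chain and ATP synthase genes fell in all 5 depots, though in unequal numbers. The study's methods used more tissue for RNA isolation at 28 days than at 7 days, so age and the amount of tissue cannot be told apart. A change was called where limma gave a p of at most 0.05 after Benjamini-Hochberg adjustment over all 10273 probe sets. In perirenal fat 30 of 59 members fell and 0 rose, where of all probe sets 3.09% fell and 6.23% rose. In sternal fat 29 fell and 0 rose (3.89% and 2.47% of all probe sets), and in epicardial fat 29 fell and 1 rose (1.63% and 4.21%). In subcutaneous fat 17 fell and 0 rose (1.57% and 7.68%), and in omental fat 7 fell and 0 rose (1.03% and 13.5%). These shares are not matched on signal, since 30 of 59 members but only 1752 of 10273 probe sets averaged at least 4. Shares among the brighter probe sets alone are not given here. The median change of the members was -0.43 in perirenal, -0.43 in sternal, -0.47 in epicardial, -0.20 in subcutaneous and -0.09 in omental fat, beside medians of 0.01, 0.00, 0.02, 0.05 and 0.06 over all probe sets. Differences are on the log2 scale throughout. Members with a lower mean at 28 days, called or not, numbered 57, 53, 54, 47 and 43 of 59 in the same order.

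Averaged over all 59 members, the level per array lay between 5.02 and 5.33 in perirenal fat at 7 days and between 4.50 and 4.67 at 28 days. The ages did not overlap in sternal fat either, with 4.82 to 5.01 and then 4.27 to 4.59, nor in subcutaneous fat, with 4.80 to 4.85 and then 4.41 to 4.56. Epicardial arrays ranged from 4.98 to 5.31 and then from 4.41 to 4.92, and the lowest of the later arrays was N. Only in omental fat did the ranges overlap, with 4.53 to 4.80 at 7 days and 4.43 to 4.68 at 28 days. These averages are a description and were given no test.

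**Figure D1:**
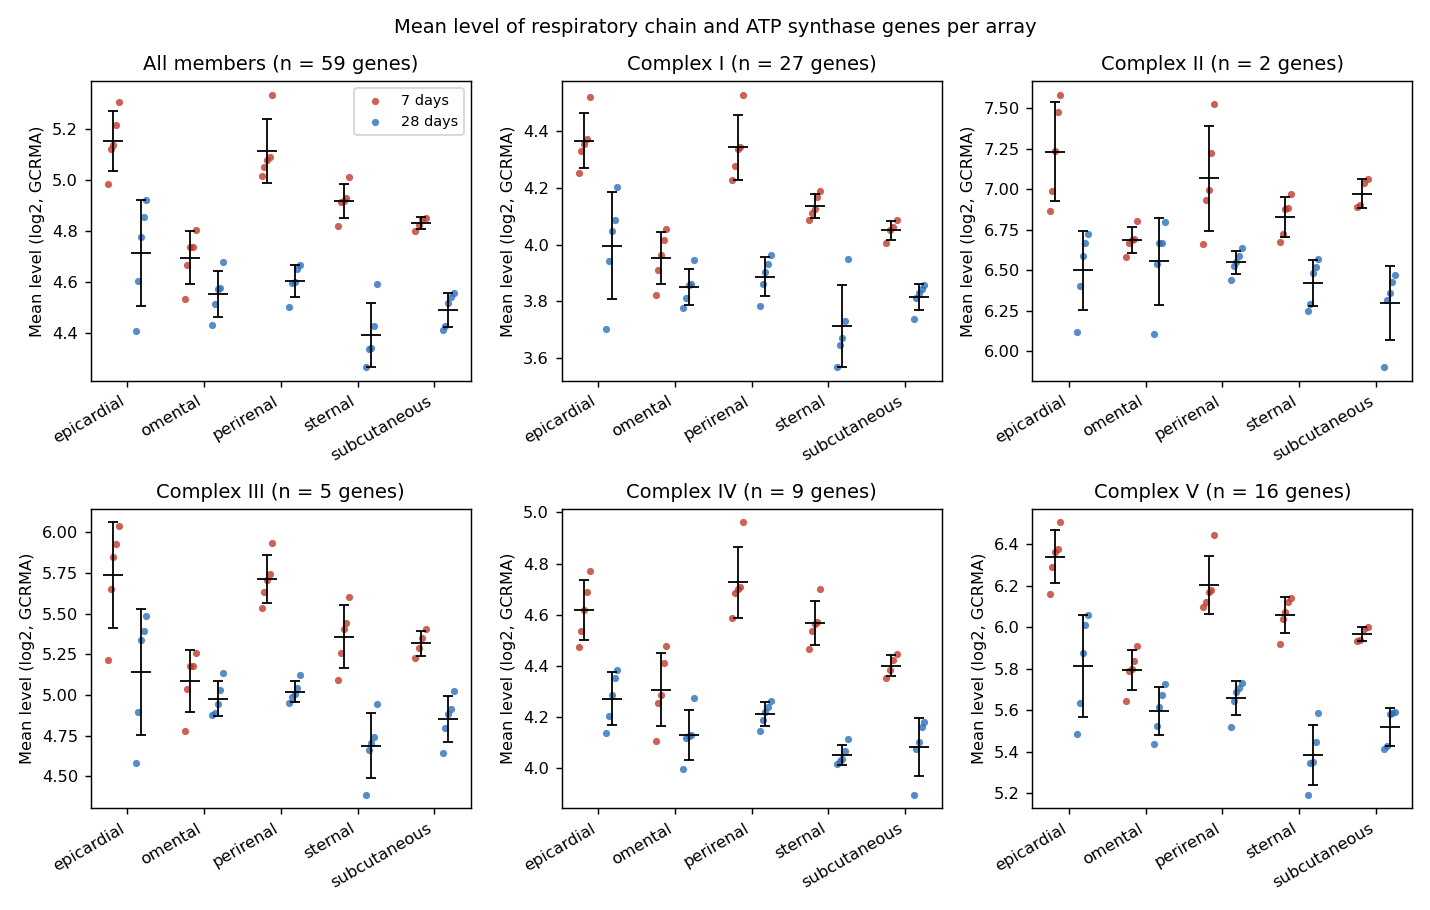
Mean level (log2, GCRMA) of all 59 members and of the members of each complex in every array, by depot, at 7 days (red) and 28 days (blue). Points are arrays, and black lines are the group mean with the SD. Over all members, the 28 day arrays lie below the 7 day arrays in every depot except omental fat, where 4.43 to 4.68 overlaps 4.53 to 4.80.

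Single members whose 28 day arrays all lay below all 7 day arrays numbered 30 in perirenal fat (2.54% of all probe sets), 25 in sternal (2.20%), 22 in subcutaneous (1.03%), 13 in epicardial (0.730%) and 2 in omental fat (0.409%). None lay the other way round. Across depots, 5 members fell in all 5, namely NDUFA6 and NDUFV2 of complex I and ATP5F1C, ATP5MC3 and ATP5MK of the ATP synthase. A further 7 fell in 4 depots, 11 in 3, 9 in 2 and 8 in 1, and 19 were not called lower in any. Among the 29 members with a mean below 4, falls were called for 7 in epicardial, 6 in perirenal, 5 in sternal, 1 in omental and 0 in subcutaneous fat, where 4 had an unadjusted p under 0.05. A fall below the lowest signal cannot be measured in such members.

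**Figure D2:**
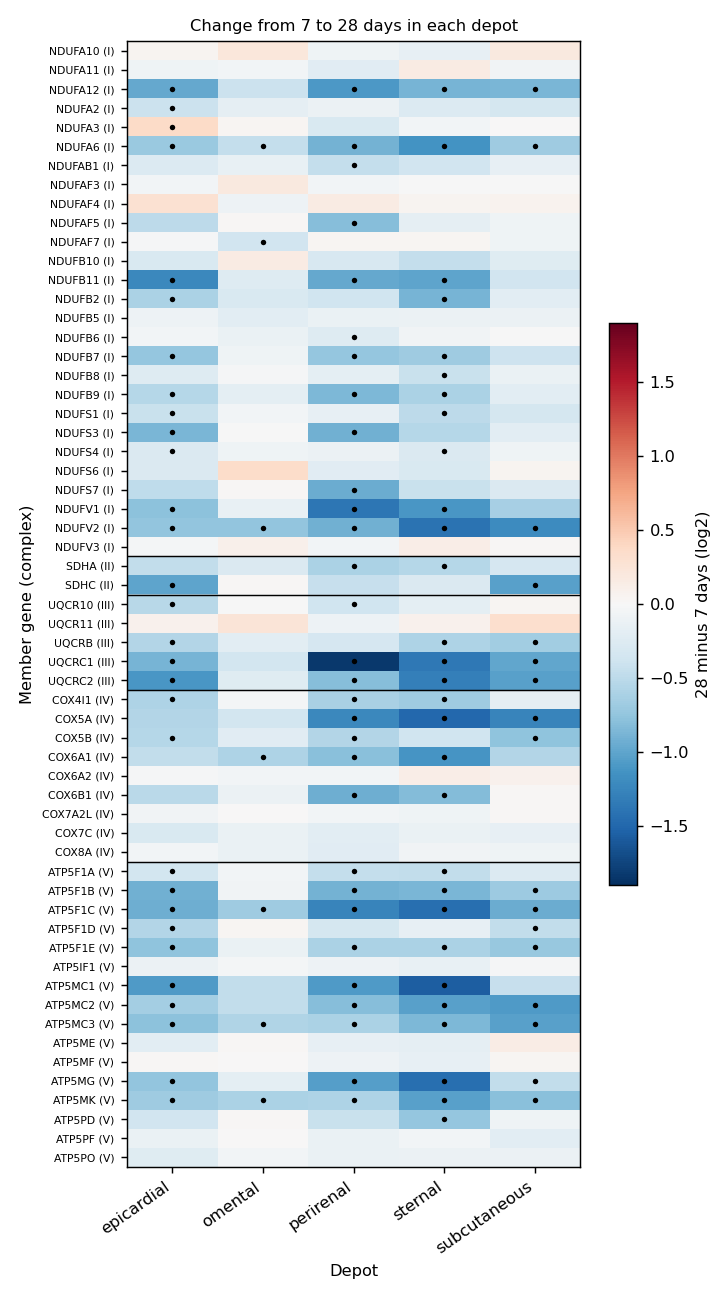
Change from 7 to 28 days (log2, colour) of each of the 59 members (vertical axis, with its complex) in each of the 5 depots (horizontal axis). Black dots mark changes with an adjusted p of at most 0.05 and lines separate the complexes. Falls (blue) with dots run through all 5 complexes in perirenal, sternal, epicardial and subcutaneous fat, and 7 of them are in omental fat.

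In complex I, which takes electrons from NADH, 12 of 27 members fell in perirenal, 12 in epicardial, 11 in sternal, 3 in subcutaneous and 3 in omental fat. NDUFV1 and NDUFV2 lie at its NADH-oxidising end. In perirenal fat NDUFV1 was at 6.14, 6.83, 7.22, 7.45 and 7.67 in the 5 arrays at 7 days and at 5.16, 5.56, 5.80, 5.87 and 6.03 at 28 days. All later arrays were below all earlier ones, and the change was -1.38 ± 0.24 (standard error in the fit, as after ± below, adjusted p = 7.21e-05 from limma). In sternal fat NDUFV1 changed by -1.11 and in epicardial fat by -0.77. NDUFV2 changed by -1.41 in sternal, -1.19 in subcutaneous, -0.91 in perirenal, -0.76 in epicardial and -0.75 in omental fat. Its subcutaneous arrays were at 7.54, 7.55, 7.72 and 7.95 at 7 days and at 6.34, 6.45, 6.50, 6.52 and 6.66 at 28 days, without overlap (adjusted p = 0.000209 from limma). With the CKM-rich arrays left out, and thus 1 subcutaneous array at 7 days, NDUFV2 differed by -0.99 there and was not called (adjusted p = 0.135).

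NDUFS3 and NDUFS7 are core subunits of the same arm, and NDUFS7 holds the last iron-sulphur cluster before ubiquinone. NDUFS3 changed by -0.91 in perirenal and -0.86 in epicardial fat, and NDUFS7 by -0.94 in perirenal fat. Its perirenal arrays were at 4.66, 5.21, 5.23, 5.29 and 5.87 at 7 days and at 4.13, 4.27, 4.27, 4.37 and 4.50 at 28 days. Among accessory subunits, NDUFA6 changed by -1.14 in sternal, -0.90 in perirenal, -0.71 in epicardial, -0.68 in subcutaneous and -0.45 in omental fat, the last with an adjusted p of 0.0494. NDUFA12 changed by -1.09 in perirenal, -0.97 in epicardial, -0.88 in sternal and -0.87 in subcutaneous fat. Other accessory subunits of complex I fell in fewer depots. NDUFB9 changed by -0.85 in perirenal, -0.60 in sternal and -0.54 in epicardial fat, NDUFB7 by -0.73 in perirenal, -0.74 in epicardial and -0.68 in sternal fat, and NDUFB2 by -0.89 in sternal and -0.61 in epicardial fat.

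NDUFB11, an accessory subunit of the membrane arm, had the largest fall of any member in epicardial fat. Its epicardial arrays were at 5.11, 5.13, 5.36, 5.85 and 6.12 at 7 days and at 4.00, 4.11, 4.19, 4.53 and 4.59 at 28 days. The ages did not overlap, and the change was -1.23 ± 0.18 (adjusted p = 1.06e-05 from limma). It also changed by -0.998 in sternal and -0.97 in perirenal fat. The single rise among all members and depots was that of NDUFA3 in epicardial fat, 0.37 ± 0.10, near the lowest signal, from 2.77, 2.77, 2.79, 2.79 and 3.08 to 2.79, 3.05, 3.07, 3.43 and 3.69. These groups overlapped, and the call was lost when any of 5 single arrays was left out, with an adjusted p of up to 0.146, and with both other scalings of the arrays. Of the 4 assembly factors, NDUFAF5 changed in perirenal fat by -0.81 and NDUFAF7 in omental fat by -0.36, and the others were not called.

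Complex II, which takes electrons from succinate, was measured through SDHA, its flavoprotein, and SDHC, a membrane anchor. The anchor SDHC fell in epicardial and subcutaneous fat. Its subcutaneous arrays were at 7.64, 7.84, 7.98 and 8.02 at 7 days and at 6.66, 6.73, 6.79, 6.94 and 7.04 at 28 days. There was no overlap, and the change was -1.04 ± 0.18 (adjusted p = 0.000184 from limma), beside -1.002 ± 0.17 in epicardial fat. In omental fat SDHC differed by 0.02 ± 0.17 and stayed between 7.02 and 7.50 at both ages. The same value, 7.23, occurred in omental and in sternal arrays of 7 days, so the exact repeats of SDHC given above touch both depots. SDHA changed in perirenal fat by -0.61 and in sternal fat by -0.54.

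In complex III, which passes electrons from ubiquinol to cytochrome c, 4 of 5 members fell in epicardial, 3 each in perirenal, sternal and subcutaneous and 0 in omental fat, where 0 had an unadjusted p under 0.05. UQCRC1 and UQCRC2 are its core proteins and UQCRB and UQCR10 are small subunits. UQCRC1 had the largest fall of all 59 members. In perirenal fat it was at 9.29, 9.52, 9.82, 9.83 and 9.89 at 7 days and at 7.63, 7.72, 7.83, 7.95 and 8.08 at 28 days. More than 1 log2 unit separated the lowest early array from the highest late one, and the change was -1.83 ± 0.24 (adjusted p = 1.00e-06 from limma). UQCRC1 also changed by -1.36 in sternal, -0.99 in subcutaneous and -0.88 in epicardial fat, while omental fat differed by -0.35 ± 0.24 (adjusted p = 0.384). UQCRC2 changed by -1.30 in sternal, -1.11 in epicardial, -1.03 in subcutaneous and -0.82 in perirenal fat. UQCRB changed by -0.67 in subcutaneous, -0.58 in sternal and -0.55 in epicardial fat, and UQCR10 by -0.52 in epicardial and -0.38 in perirenal fat.

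Complex IV, cytochrome c oxidase, reduces oxygen. Of its 9 members 5 fell in perirenal, 4 in sternal, 2 in epicardial, 2 in subcutaneous and 1 in omental fat. COX5A was at 7.43, 7.59, 7.72, 7.79 and 7.88 in sternal fat at 7 days. At 28 days it was at 5.70, 6.12, 6.13, 6.16 and 6.81, the highest being array J. The change was -1.50 ± 0.24 (adjusted p = 1.63e-05 from limma) with no overlap, and COX5A changed by -1.26 in subcutaneous and -1.23 in perirenal fat. The subcutaneous call was lost without the arrays with CKM above 4, at -1.01 (adjusted p = 0.284), and with only the 2 groups in the fit (adjusted p = 0.0566). COX6A1, the general form of subunit VIa, changed by -1.12 in sternal, -0.79 in perirenal and -0.59 in omental fat. COX6B1 changed by -0.93 in perirenal and -0.83 in sternal fat and differed by 0.03 ± 0.19 in subcutaneous fat. COX5B changed by -0.77 in subcutaneous, -0.56 in perirenal and -0.55 in epicardial fat. COX4I1, a nuclear-encoded subunit read at levels of 2.49 to 4.26, changed by -0.68 in sternal, -0.61 in perirenal and -0.59 in epicardial fat.

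Complex V had the most members of any complex that fell in subcutaneous fat, 8 of 16, beside 10 in epicardial, 10 in sternal, 9 in perirenal and 3 in omental fat. ATP5F1A, ATP5F1B and ATP5F1C form the catalytic head and its central stalk. ATP5F1C was at 9.14, 9.15, 9.21, 9.21 and 9.81 in perirenal fat at 7 days and at 7.61, 7.999, 8.08, 8.27 and 8.28 at 28 days. The ages were apart by a wide gap, and the change was -1.26 ± 0.17 (adjusted p = 1.53e-06 from limma). It changed by -1.43 in sternal, -0.95 in subcutaneous, -0.92 in epicardial and -0.67 in omental fat. ATP5F1B, the catalytic beta subunit, changed by -0.91 in epicardial, -0.90 in perirenal, -0.87 in sternal and -0.69 in subcutaneous fat, and ATP5F1A by -0.46, -0.46 and -0.36 in perirenal, sternal and epicardial fat. ATP5F1E, a small subunit of the central stalk, changed by -0.77 in epicardial, -0.72 in subcutaneous, -0.60 in perirenal and -0.60 in sternal fat, and ATP5F1D, which adjoins it, by -0.56 in epicardial and -0.47 in subcutaneous fat.

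ATP5MC1, ATP5MC2 and ATP5MC3 are separate genes for the same subunit c, which forms the rotating ring in the membrane. ATP5MC1 was at 4.65, 4.79, 4.79, 5.20 and 5.29 in sternal fat at 7 days. At 28 days it was at 2.95, 3.05, 3.19, 3.30 and 4.41, with array J far above the others and yet below every earlier array. The change was -1.57 ± 0.23 (adjusted p = 6.81e-06 from limma), and it changed by -1.07 in both perirenal and epicardial fat. ATP5MC2 changed by -1.08 in subcutaneous, -1.02 in sternal, -0.82 in perirenal and -0.65 in epicardial fat. ATP5MC3 changed in all depots, by -1.03 in subcutaneous, -0.85 in sternal, -0.78 in epicardial, -0.61 in perirenal and -0.58 in omental fat.

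ATP5MG and ATP5MK are small membrane subunits of the ATP synthase. ATP5MG was at 11.63, 11.65, 11.75, 11.82 and 11.91 in sternal fat at 7 days and at 9.86, 10.21, 10.36, 10.43 and 10.72 at 28 days. The change of -1.43 ± 0.12 had the smallest adjusted p of all members and depots, 3.00e-11 from limma, and the ages were well apart. ATP5MG changed by -1.05 in perirenal, -0.75 in epicardial and -0.47 in subcutaneous fat. ATP5MK changed by -1.03 in sternal, -0.79 in subcutaneous, -0.67 in epicardial, -0.60 in omental and -0.59 in perirenal fat, and lost its omental call when any of 5 single arrays was left out. ATP5PD, a peripheral stalk subunit, changed in sternal fat by -0.74. ATP5IF1, the inhibitor, lay between 2.49 and 3.13 and was not called. Probe sets ending in _x_at, as those of ATP5MG, ATP5F1C, SDHA and COX4I1, can by the maker's naming match transcripts of several genes.

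**Figure D3:**
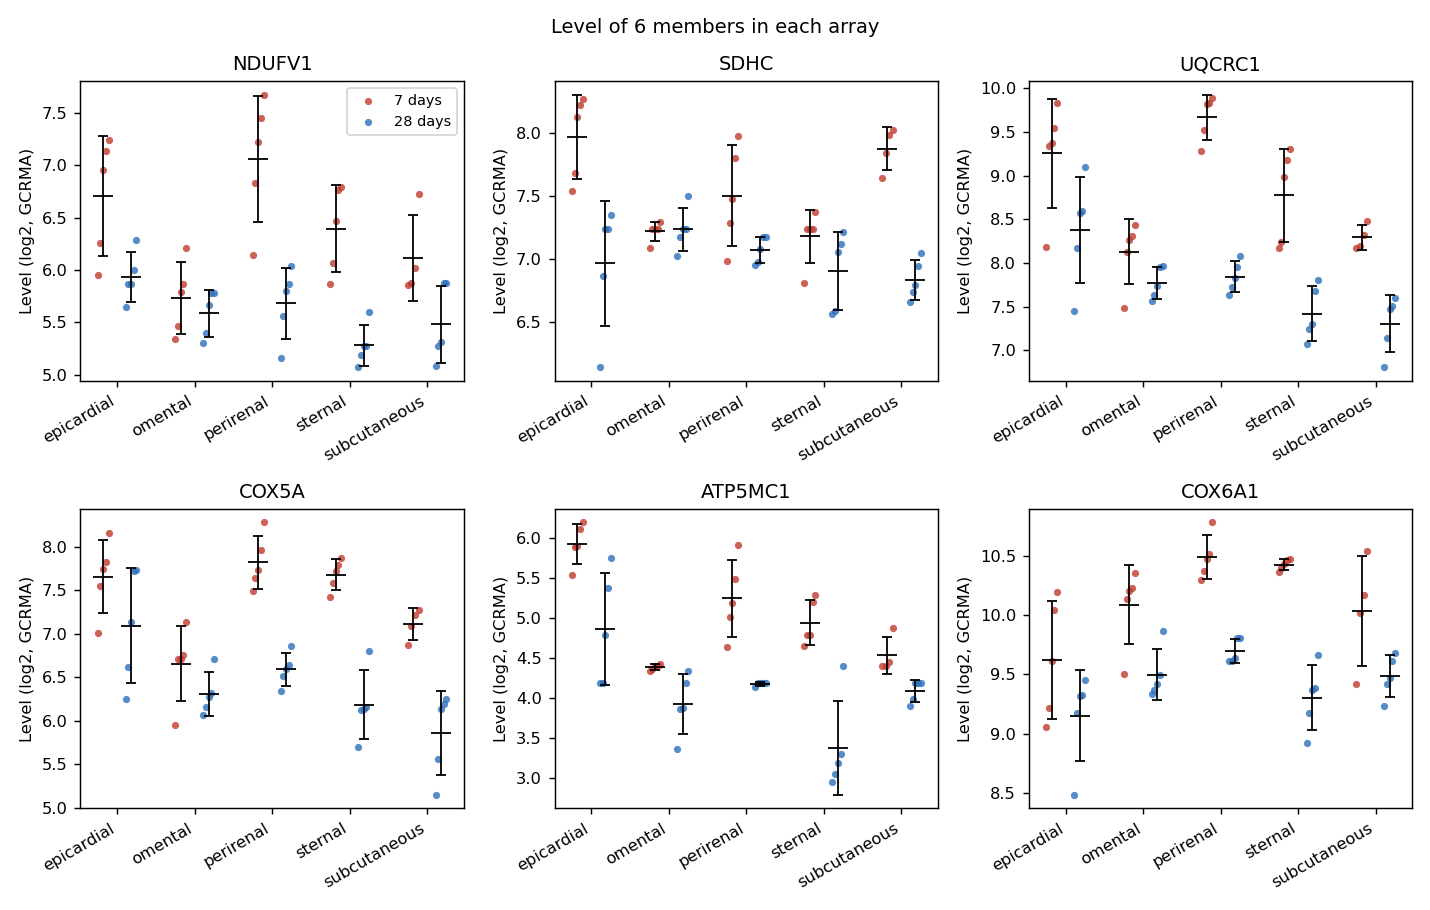
Level (log2, GCRMA) of NDUFV1, SDHC, UQCRC1, COX5A, ATP5MC1 and COX6A1 in every array, by depot, at 7 days (red) and 28 days (blue), with group means and SDs in black. UQCRC1 in perirenal fat drops from 9.29 to 9.89 down to 7.63 to 8.08, while SDHC in omental fat stays between 7.02 and 7.50.

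In perirenal fat both muscle lists were low at both ages, at array means of 2.87 to 2.92 for the cardiac and 2.69 to 2.72 for the skeletal list, although single members were higher, with group means of 5.30 and 5.47 for MYL4 and 3.97 and 4.17 for ACTA1 at 7 and 28 days. Of both lists 0 markers were called by limma between the ages there, and 0 had an unadjusted p under 0.05. With only the perirenal arrays in the fit, 30 members were again called lower. Without the sternal arrays with CKM above 4, 21 members fell in sternal fat. Without the subcutaneous ones, and so with 1 array at 7 days, 3 fell in subcutaneous fat, while the median change moved from -0.20 to -0.19. With all arrays, 8 of 13 skeletal muscle markers fell in subcutaneous fat (1.57% of all probe sets) and 2 of 13 rose in sternal fat (2.47%). In epicardial fat 17 members fell when array N of 28 days was left out, and the cardiac markers moved with age there as given above. With only the 2 groups compared in the fit, 5 members fell in epicardial, 16 in sternal, 9 in subcutaneous and 3 in omental fat. UQCRC2 and ATP5MC1 were then not called in epicardial fat (adjusted p = 0.211 and 0.150), nor ATP5MC2 in subcutaneous fat (0.154), nor ATP5F1C and ATP5MK in omental fat (0.0506 and 0.113). The part of muscle RNA in these changes was not tested. In the fits on fewer arrays, shares of all probe sets called were not counted.

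Markers of other cell types also moved with age. The 7 fibroblast and matrix markers, of 7 listed, had array means of 6.21 to 6.73 in sternal fat at 7 days and 7.12 to 8.08 at 28 days, and of 6.49 to 6.86 and then 7.08 to 7.39 in epicardial fat, without overlap in either. Of the 7, 5 rose in sternal (2.47% of all probe sets), 2 in perirenal (6.23%), 2 in subcutaneous (7.68%), 1 in epicardial (4.21%) and 1 in omental fat (13.5%). The omental count is near the share of all probe sets. COL1A1, a chain of type I collagen, went from a group mean of 7.77 to 11.61 in sternal fat, while LUM stayed near the lowest signal. In perirenal fat the array means of this list overlapped, from 5.93 to 6.69 and then from 5.98 to 6.97. Of 7 mesothelial markers 3 were measured, with array means in epicardial fat of 2.64 to 3.64 and then 3.71 to 4.20, and WT1, a transcription factor of mesothelium, had group means of 3.66 and 5.45 there. Of 7 endothelial markers 6 were measured, and their array means were higher at 28 days without overlap in epicardial, omental and perirenal fat, though at most 3.10 in any array. The part of these cells in the members' changes was not tested.

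How each array is scaled touched the omental count most. Arrays differed in the mean of the 1752 probe sets that average at least 4, from 5.95 to 6.11 in omental fat at 7 days and from 6.26 to 6.37 at 28 days. With the arrays shifted to the same mean over those probe sets, 43 members fell and 0 rose in omental fat. The median of all probe sets there moved from 0.06 to -0.24, against -0.39 for the members. The shift moves every value of an array by the same amount, also those near the lowest signal. A call of such a member after the shift cannot be read as a fall, and the share of all probe sets called was not counted. With quantile normalization, under which the median of all probe sets was -0.01, 19 members fell in omental fat and their median was -0.34. There too the share of all probe sets called was not counted. Under both scalings no member rose with age in any depot. Falls in perirenal, sternal and epicardial fat then numbered 28 to 35 after quantile normalization and 25 to 41 after the shift. In subcutaneous fat 19 fell after quantile normalization and 31 after the shift. Omental counts also moved when single arrays were left out, to 3 without array A and 4 without array E of 7 days and to 4 without array I of 28 days.

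Genes that work beside the chain were counted from lists, to be read beside the shares of all probe sets that fell (3.09% in perirenal, 3.89% in sternal, 1.63% in epicardial, 1.57% in subcutaneous and 1.03% in omental fat) or rose (6.23%, 2.47%, 4.21%, 7.68% and 13.5%). Of 13 measured partners of the chain (cytochrome c, cytochrome c1, electron transfer flavoproteins and ubiquinone synthesis), 4 fell in perirenal, 4 in epicardial, 3 in sternal, 1 in omental and 1 in subcutaneous fat and 0 rose. CYC1, the cytochrome c1 of complex III, changed by -0.76 in perirenal, -0.74 in epicardial and -0.56 in sternal fat at levels of 2.49 to 4.26, and CYCS was at the lowest signal. Of 14 assembly factors 1 fell in epicardial and 1 in perirenal fat, and 3 rose in omental and 1 in subcutaneous fat. Of 63 mitochondrial ribosomal proteins and translocases, which are nuclear-encoded mitochondrial genes outside the chain, 7 fell in perirenal, 4 in sternal, 4 in epicardial, 1 in subcutaneous and 0 in omental fat, while 6 rose in omental and 2 in subcutaneous fat. Their medians were -0.11, -0.08, -0.04, 0.00 and 0.04 in that order.

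Of 15 measured regulators of mitochondrial biogenesis, 3 fell in each of epicardial, perirenal and sternal fat and 1 in subcutaneous fat, and 1 rose in each of epicardial, omental and subcutaneous fat. PPARGC1A, a coactivator that raises mitochondrial gene transcription, was at 6.16, 6.17, 6.73, 6.75 and 6.85 in perirenal fat at 7 days and at 3.63, 3.83, 3.85, 4.17 and 4.94 at 28 days, a change of -2.44 ± 0.33 without overlap. It changed by -3.06 in sternal and -1.25 in epicardial fat and differed by -0.13 ± 0.33 in omental and -0.36 ± 0.35 in subcutaneous fat, where its 7 day arrays were at 2.59 to 3.89 and 3.03 to 4.09. ESRRA, a nuclear receptor acting with it, changed by -1.11 in perirenal, -0.65 in epicardial and -0.44 in sternal fat. UCP1 changed by -3.37 in perirenal and -1.56 in sternal fat. In epicardial fat its 28 day arrays all lay below its 7 day arrays, but the change of -1.14 ± 0.36 was not called (adjusted p = 0.0538 from limma). The omental group mean of UCP1 was 3.65 at 7 days and 2.91 at 28 days. In subcutaneous fat, UCP1 was at 2.49 to 2.99 at 7 days and differed by 0.19 ± 0.39 between the ages, while 17 members fell. Of the 4 subcutaneous arrays of 7 days, 3 had CKM above 4. Of 8 brown adipocyte markers 5 were measured, and beside UCP1 and PPARGC1A these were CIDEA, EBF2 and ADRB3. Perirenal group means at 7 and 28 days were 2.69 and 2.76 for CIDEA, 3.99 and 3.98 for EBF2 and 2.66 and 2.50 for ADRB3. In sternal fat EBF2 had 3.98 and 4.03. CIDEA and ADRB3 lay near the lowest signal.

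At 7 days the depots differed in 26 of 59 members by an F test over the 5 depots, against 8.16% of all probe sets. Epicardial fat had 10 members above the mean of the other 4 depots (3.35% of all probe sets) and 1 below (0.720%), and perirenal fat had 12 above (4.58%) and 0 below. Omental fat had 15 below (0.973%) and 0 above (0.565%), subcutaneous fat 3 below (0.701%), and sternal fat had 0 on either side (0.273% above and 0.925% below), with 13 members at an unadjusted p under 0.05. Comparisons of one depot with the rest share arrays, so that a high depot lowers the others.

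In epicardial fat at 7 days ATP5MC1 stood highest. It was at 5.55, 5.89, 5.90, 6.12 and 6.20 there, at 4.64, 5.02, 5.19, 5.49 and 5.92 in perirenal, at 4.65 to 5.29 in sternal, at 4.41 to 4.88 in subcutaneous and at 4.34 to 4.43 in omental fat. The epicardial arrays overlapped only those of perirenal fat, and the difference from the other depots was 1.15 ± 0.14 (adjusted p = 2.49e-05 from limma). NDUFA12 was 0.95 ± 0.14 and NDUFB11 0.88 ± 0.16 above the other depots. For ATP5MC2 and ATP5MC3, the other genes of subunit c, epicardial fat was not called.

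COX6A1 was the 1 member that was lower in epicardial fat. Its arrays there were at 9.05, 9.22, 9.62, 10.04 and 10.19 at 7 days, beside 10.30 to 10.78 in perirenal and 10.36 to 10.47 in sternal fat. The epicardial values lay below all perirenal and sternal ones, with differences of -0.86 ± 0.21 and -0.80 ± 0.21, and overlapped the omental and subcutaneous ones. Against the mean of the other depots the difference was -0.63 ± 0.16 (adjusted p = 0.0295), and it was not called when array C, D or G of epicardial fat was left out, with an adjusted p of up to 0.141. Nor was it called with the replicate number fitted as a block (adjusted p = 0.0656 from limma). COX6A2, the muscle form of the same subunit, was at 2.52 to 2.66 in those 5 epicardial arrays, all with CKM above 8.

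In perirenal fat at 7 days UQCRC1 stood above the other depots by 1.06 ± 0.21 (adjusted p = 0.00447) and NDUFS7 by 0.83 ± 0.14 (adjusted p = 0.00128). The perirenal arrays of UQCRC1, from 9.29, lay above all omental, with at most 8.44, and above all subcutaneous arrays, with at most 8.48. They overlapped those of epicardial and sternal fat. ATP5MG was 0.52 ± 0.07 and ATP5F1B 0.53 ± 0.09 above the mean of the other depots. NDUFV1 was 0.82 ± 0.23 above it (adjusted p = 0.0421) and lost its call in 15 of 24 fits that left out 1 array, with both other scalings (adjusted p = 0.0781 and 0.111) and without the arrays with CKM above 4 (0.0667).

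In omental fat at 7 days the 15 lower members came from complexes I, III, IV and V. COX5A was at 5.95, 6.72, 6.72, 6.76 and 7.14 there and at 7.43 to 7.88 in sternal and 7.49 to 8.28 in perirenal fat. Omental arrays lay below all of those, and the difference from the other depots was -0.91 ± 0.16 (adjusted p = 0.00392). UQCRC2 was the 1 member whose omental arrays, 4.67 to 5.27, all lay below those of every other depot, from 5.39, with a difference of -0.71 ± 0.12 (0.0389% of all probe sets showed such a gap). ATP5MC1 differed by -0.78 ± 0.14 and UQCRC1 by -0.87 ± 0.21, the latter losing its call when array A, C, D or G of omental fat was left out and without the arrays with CKM above 4 (adjusted p = 0.09995). Without the epicardial arrays neither was called, ATP5MC1 at -0.52 (adjusted p = 0.165) and UQCRC1 at -0.79 (0.0565). In subcutaneous fat, where 3 of 4 arrays had CKM above 4, COX4I1, ATP5F1B and ATP5MG differed by -0.52, -0.46 and -0.36. None was called without the arrays with CKM above 4, at -0.40, -0.47 and -0.20 (adjusted p = 0.827, 0.355 and 0.979). Without the epicardial arrays COX4I1 and ATP5F1B were not called, at -0.45 and -0.29 (adjusted p = 0.126 and 0.224).

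In pairs of depots at 7 days, epicardial fat had 24 members above omental fat (3.36% of all probe sets), 10 above subcutaneous fat (1.75%) and 9 above sternal fat (3.24%). Perirenal fat had 19 above omental fat (4.23%) and 14 above subcutaneous fat (3.18%), and 0 members were below in these pairs except COX6A1 in epicardial against sternal fat (0.691%). Between epicardial and perirenal fat ATP5MC1 was higher in the first, by 0.68 (1.24% of all probe sets), and COX6A1 lower (1.13%), and between omental and subcutaneous fat 0 members were called, beside 0.107% of all probe sets higher and 0.0973% lower, with 11 members at an unadjusted p under 0.05.

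**Figure D4:**
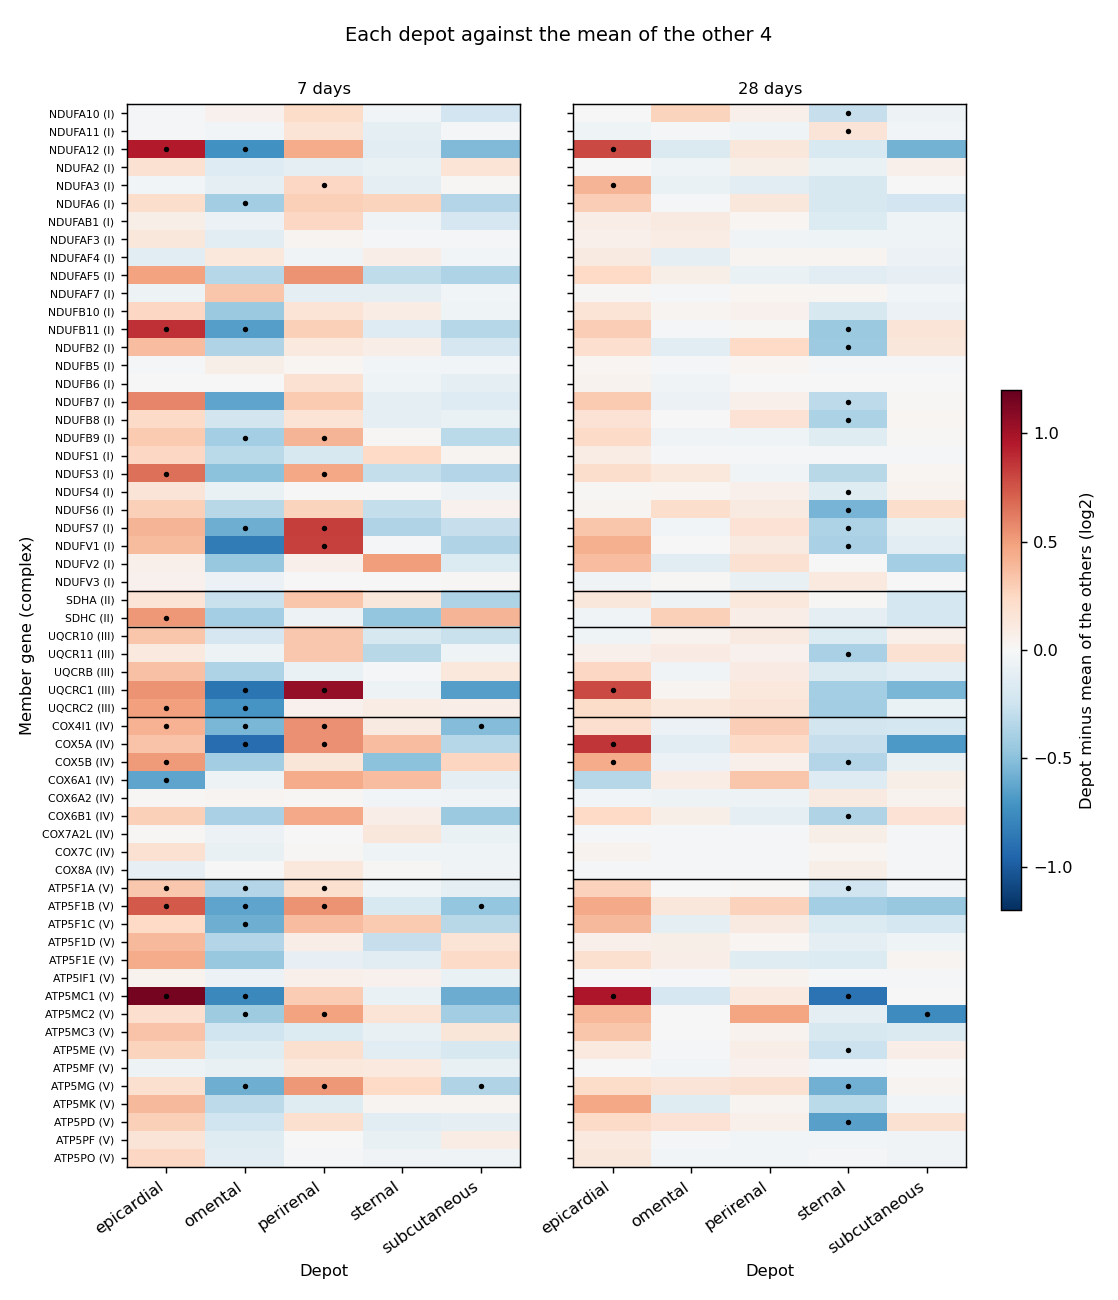
Difference (log2, colour) of each depot from the mean of the other 4 for the 59 members (vertical axis, with their complex), at 7 days (left) and 28 days (right). Black dots mark an adjusted p of at most 0.05. At 7 days the dots fall on higher values in epicardial and perirenal fat and lower values in omental fat, and at 28 days on lower values in sternal fat.

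The 7 day counts changed in size with the scaling, and shares of all probe sets called were not counted in the refits given here. After quantile normalization 5 members were higher in epicardial, 7 in perirenal and 10 lower in omental fat, and 2 were higher in sternal fat. After the shift the counts were 10, 5 and 9, with 3 members lower in epicardial fat and 5 higher in sternal fat. Leaving out the CKM-rich sternal and subcutaneous arrays, 7 were higher in perirenal fat. Without the epicardial arrays 21 were higher in perirenal and 9 lower in omental fat, each against the mean of the other 3 depots. The epicardial count fell to 6 without its array G, the omental one to 9, 9 and 8 without its arrays A, G and C, and the perirenal one to 7 without its array A or C. In subcutaneous fat 0 were lower without array A.

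At 28 days the F test called 13 of 59 members, or about the share of all probe sets, 20.0%, which is not matched on signal. Epicardial fat had 6 members above the other depots (2.74%), ATP5MC1 by 0.97 ± 0.21, COX5A by 0.86 ± 0.20, UQCRC1 by 0.79 ± 0.17, NDUFA12 by 0.79, COX5B by 0.45 and NDUFA3 by 0.41. The epicardial arrays of COX5A were at 6.25, 6.62, 7.13, 7.73 and 7.74, and those of all other depots together at 5.15 to 6.86. The lowest 2 epicardial arrays, N and I, lay within that range and had the lowest CKM of the group, 6.82 and 2.76. The count fell to 0 without epicardial array O and 1 without array J, and was 12 without array N. With the replicate number fitted as a block, 2 members were called in place of 6. ATP5MC1 was still called (adjusted p = 0.0229 from limma), and COX5A (0.0944) and UQCRC1 (0.0689) were among those not called. For perirenal fat 0 members were called on either side by limma at 28 days (2.87% of all probe sets above, 0.487% below), with 4 at an unadjusted p under 0.05. For omental fat 0 were called (4.76% above, 0.360% below), with 2 at an unadjusted p under 0.05. In subcutaneous fat 0 members were above (2.58%) and 1 below (0.458%), the subunit c gene ATP5MC2. It differed by -0.76 ± 0.16 (adjusted p = 0.00804), with arrays at 6.14, 6.99, 7.13, 7.55 and 7.77 against 7.36 to 8.34 elsewhere.

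Sternal fat at 28 days had 17 members below the other depots (18.4% of all probe sets) and 1 above (1.65%). The median difference of the members was -0.17, beside -0.07 for all probe sets and -0.33 for the 1752 probe sets that average at least 4. ATP5MC1 differed by -0.89 ± 0.21, ATP5PD by -0.65 ± 0.13 and ATP5MG by -0.58 ± 0.11, and NDUFA11, near the lowest signal, was higher by 0.16 ± 0.05. NDUFA11 turned to -0.0130 without the arrays with CKM above 4 (adjusted p = 0.803) and was not called without the epicardial arrays (0.0798) or in 2 fits that left out 1 array (up to 0.200). ATP5PD was not called without the arrays with CKM above 4, at -0.47 (adjusted p = 0.119), nor after quantile normalization, at -0.24 (0.201). The counts by direction depended on the scaling. The mean of the brighter probe sets was 5.83 to 6.01 in the sternal arrays of 28 days and 6.20 to 6.41 in all other arrays of that age. After quantile normalization 1 member was lower and 3 higher, and after the shift 2 were lower and 23 higher. The shift raised every sternal value against the other depots, also values near the lowest signal. NDUFA11 thus went from 0.16 to 0.52. A call of such a member after the shift cannot be read as a higher level, and the share of all probe sets called was not counted. ATP5MC1 was below the other depots under both, by -0.60 after quantile normalization (adjusted p = 0.0761) and by -0.53 after the shift (adjusted p = 0.0228), whereas ATP5MG was at -0.22 after the shift (adjusted p = 0.0679). Without the arrays with CKM above 4, 4 members were lower and 0 higher, and without sternal array N 8 were lower. ATP5ME was the 1 member whose sternal arrays, all at the same 3.66, lay below those of every other depot (2.14% of all probe sets).

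**Figure D5:**
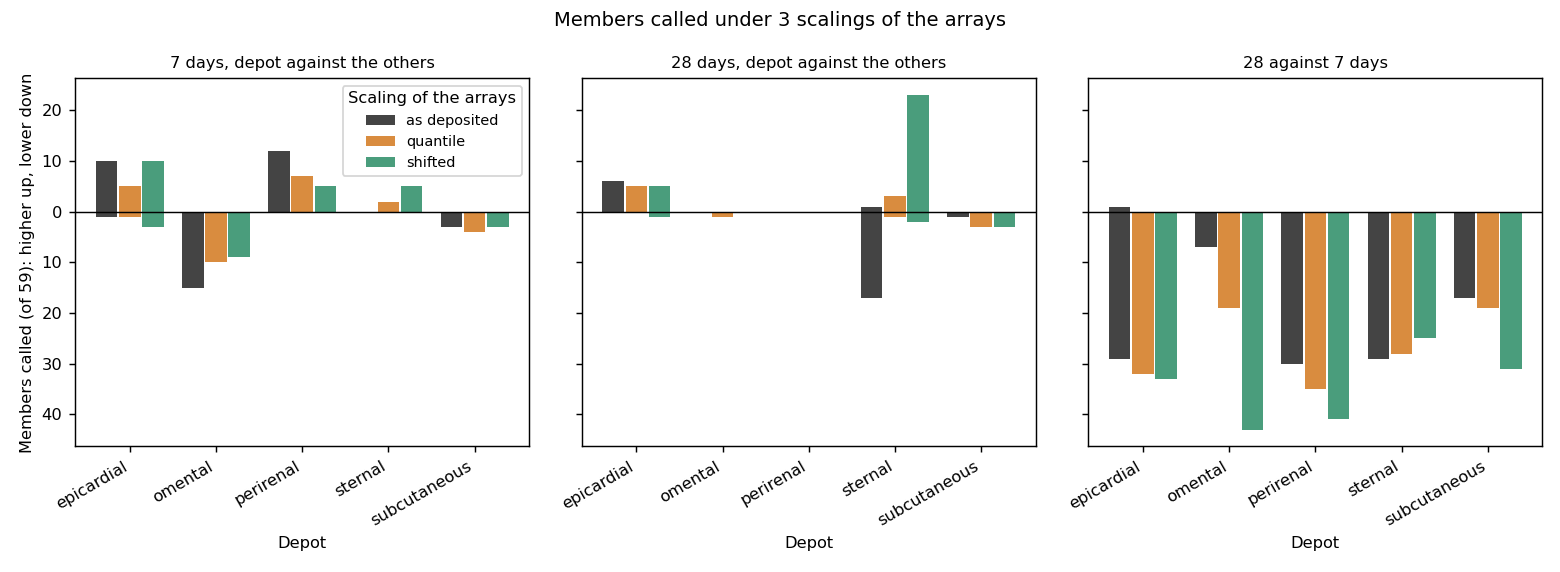
Members called higher (bars above 0) or lower (bars below 0) of 59 in each depot, at 7 days against the other depots (left), at 28 days against the other depots (middle) and between the ages (right), with the values as deposited (dark grey), after quantile normalization (orange) and after a shift of each array to 1 mean over the brighter probe sets (green). Sternal fat at 28 days changes from 17 lower as deposited to 23 higher after the shift, which also moves values near the lowest signal. Bars for the change with age stay below 0 apart from the 1 rise in epicardial fat.

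Whether the change with age differed between depots was tested by an interaction F test, which called 8 members, against 9.17% of all probe sets. ATP5MG had the smallest adjusted p, 2.20e-05 from limma, with changes from -1.43 in sternal to -0.19 ± 0.12 in omental fat. SDHC followed (adjusted p = 0.00566), with falls of about 1 in epicardial and subcutaneous fat given above and a difference of -0.27 ± 0.17 in sternal fat. Its omental and sternal arrays hold an exactly repeated value, as given above. NDUFB11, NDUFS3, UQCRC1, COX6B1, COX4I1 and NDUFA3 were the others. Against the mean change in the other 4 depots, the change in perirenal fat differed for 0 members (0.759% of all probe sets were lower), with 11 at an unadjusted p under 0.05 from limma. The nearest was NDUFS7, at -0.66 ± 0.19 and an adjusted p of 0.0735, whereas UCP1 itself differed by -2.56 ± 0.41 (adjusted p = 0.000201).

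Between perirenal and omental fat the change differed for 8 members, all with the larger fall in perirenal fat (3.14% of all probe sets). These were UQCRC1 by -1.47 ± 0.34, NDUFV1 by -1.23 ± 0.34, NDUFS7 by -0.97, NDUFS3 by -0.90, ATP5MG by -0.86, NDUFAF5 by -0.83, ATP5F1B by -0.83 and ATP5F1A by -0.41. At 28 days 0 members differed between these depots, with 1 at an unadjusted p under 0.05, where at 7 days 19 had. Between perirenal and sternal fat the change differed for 0 members, beside 1.24% of all probe sets higher and 0.165% lower, with 5 members at an unadjusted p under 0.05, and the median difference of the changes was -0.00, ranging from -0.64 to 0.51. Against epicardial fat 1 member differed, NDUFA3 by -0.66 (0.136% of all probe sets lower, 0.0876% higher), and against subcutaneous fat 1, COX6B1 by -0.96 (1.56% lower, 0.477% higher).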

How the data were processed

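RNA of 5 adipose depots of lambs at 7 and 28 days was measured on human U133 Plus arrays (Affymetrix). The authors deposited log2 values made with GCRMA in the affy package, in 1 table of 10273 probe sets, of which 9780 have 1 gene symbol in the platform annotation. Their versions are not given in the sources used. Groups came from the labels. The members and lists were chosen with earlier results of these data known. Values were used as deposited. limma 3.58.1 in R 4.3.3 was fitted over all 10273 probe sets, with 1 model of the 5 depots at each age and 1 of all 10 groups for changes with age, and p-values were adjusted by Benjamini-Hochberg within each comparison and called at 0.05. The rule for named members was the 3 largest called rises and falls of each comparison, the member of each complex with the highest mean, subunits with tissue forms and members that are not subunits, with UCP1, PPARGC1A, ESRRA, CYCS, CYC1 and CKM beside them. Members outside it (such as NDUFB9, NDUFB7, NDUFB2, UQCR10, ATP5F1E and ATP5F1D) were chosen after their values were seen. Scripts were tested on simulated data. Alternatives were quantile normalization, a shift of each array to 1 mean over the 1752 probe sets that average at least 4, only those probe sets, the replicate number as a block, only the 2 groups compared, each array left out, and, chosen after seeing the data, arrays with muscle CKM or the epicardial arrays left out. No 2 arrays were duplicates (highest correlation 0.990). An array has no read depth, and the number of arrays limits the precision. Sequences were not used here.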

Additional observations from a re-analysis of the deposited data

Results flagged for a closer look

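Among 20 members that the comparisons single out and that average at least 4, 1 array stood apart from the rest of its group in 20 of 200 groups, or 10%, where chance gives about 1 in 20. Many groups hold exactly repeated values, so that small gaps count. In subcutaneous fat at 7 days these were array G for ATP5F1B (8.80) and ATP5MC1 (4.88) and array F for NDUFS7 (4.66). In perirenal fat they were array A of 7 days for ATP5F1C (9.81) and, at 28 days, array I for ATP5MC1 (4.13) and ATP5MC2 (7.89) and array K for ATP5PD (5.33). In sternal fat array J of 28 days was high for ATP5MC1 (4.41) and NDUFA12 (6.70), array O of 28 days for COX6B1 (4.73) and array B of 7 days for ATP5PD (6.16), and array G of 7 days was low for SDHC (6.81). In omental fat array C of 7 days was low for COX6A1 (9.50) and SDHC (7.09), array E of 7 days was high for NDUFB11 (4.56) and array N of 28 days for NDUFV2 (7.16). In epicardial fat at 28 days array O was low for COX6A1 (8.48), array N low for NDUFA6 (8.06) and array J high for NDUFS7 (5.03). In subcutaneous fat at 28 days array I was high for ATP5PD (5.86).

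The change with age differed between the depots, by an F test of the interaction in limma, for ATP5MG (adjusted p = 2.20e-05), SDHC (0.00566), NDUFB11 (0.0153), COX6B1 (0.0265), NDUFS3 (0.0270), UQCRC1 (0.0286), NDUFA3 (0.0289) and COX4I1 (0.0324). That is 8 of 59 members, beside 9.17% of all probe sets.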

How the results depend on the processing

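Counts below are of members called, of 59. Shares of all probe sets called were not counted in these fits, and causes were not tested. After quantile normalization 7 were called in perirenal, 6 in epicardial and 2 in sternal fat at 7 days, 1 in omental, 4 in sternal and 3 in subcutaneous fat at 28 days, 19 in omental fat between the ages, and 3 in the interaction. After the shift 9 were called in omental, 5 in perirenal and 5 in sternal fat at 7 days, 33 over all depots and 3 in subcutaneous fat at 28 days, 43 in omental and 31 in subcutaneous fat between the ages, and 13 in the interaction. These counts can include members near the lowest signal, whose values the shift moved too. With only probe sets averaging at least 4 the counts were 4 in sternal and 6 in subcutaneous fat at 7 days, 1 in perirenal and 3 in subcutaneous fat at 28 days, 15 in the interaction and 2 for perirenal fat against the mean change elsewhere. With only the 2 groups compared they were 5 in epicardial, 3 in omental, 16 in sternal and 9 in subcutaneous fat between the ages. Without the arrays with CKM above 4 they were 7 in perirenal, 1 in sternal and 1 in subcutaneous fat at 7 days, 4 over all depots and 4 in sternal fat at 28 days, 3 in subcutaneous fat between the ages and 4 in the interaction, and NDUFA11 in sternal fat at 28 days turned to -0.0130 (adjusted p = 0.803). Without the epicardial arrays they were 9 in omental and 21 in perirenal fat at 7 days, 8 over all depots, 2 in perirenal and 10 in sternal fat at 28 days, 15 in the interaction and 4 for perirenal fat against the mean change elsewhere. The labels do not state that a replicate number is 1 animal. After group means were removed, same-numbered arrays of different depots correlated at a mean of 0.0440 at 7 and 0.0765 at 28 days. Arrays of different numbers correlated at a mean of -0.00730 and -0.0143. With the number as a block, epicardial fat at 28 days had 2 called in place of 6, with COX5A (adjusted p = 0.0944) and UQCRC1 (0.0689) among those not called, COX6A1 in epicardial fat at 7 days was not called (0.0656), and no other count moved by over 1.5 times.

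Leaving out 1 array gave, at 7 days, 20 to 28 members over all depots, 6 to 15 in epicardial, 8 to 17 in omental, 7 to 14 in perirenal, 0 to 1 in sternal and 0 to 6 in subcutaneous fat. At 28 days it gave 9 to 22, 0 to 12, 0 to 1, 0 to 1, 8 to 22 and 1 to 3 for the same comparisons in the order all depots, epicardial, omental, perirenal, sternal and subcutaneous fat. Between the ages it gave 18 to 31 in epicardial, 3 to 8 in omental, 25 to 32 in perirenal, 26 to 32 in sternal and 16 to 18 in subcutaneous fat, with 6 to 14 in the interaction and 0 to 3 for perirenal fat against the mean change elsewhere, the 3 without array B of perirenal fat at 7 days. Of the values of named members, 622 of 669 stayed called when 1 array was left out. For members near the lowest signal, signal over background limits what can be seen.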
